A study of Homo sapiens with 16 samples.

Results

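The colorectal carcinoma line HCT116 was profiled with and without STAG2, using 4 of the 16 arrays of a series that also covers the brain tumour lines H4 and 42MGBA. The 4 arrays were taken by their titles. The differences come from these 4, but the spread behind the main tests was estimated over all 16 arrays. The H4 arrays are of STAG2-mutant and corrected cells. Those of 42MGBA are of mutant parental cells, deficient knock-in clones before Cre and corrected clones after Cre. The wild-type group was 2 non-recombinant clones, 24 and 27, which kept an intact STAG2 gene. The knockout group was 2 clones, 7 and 21, labelled as STAG2 knockouts and deficient for the gene. All 4 cultures were untreated, were grown in DMEM with serum and antibiotics, and were harvested while proliferating below confluence. Total RNA of each culture went on a single Affymetrix Human Gene 1.0 ST array, whose values are on the log2 scale, so that a difference of 1 is a doubling. Each clone is a separate subline, and each group rests on 2 of them. The difference between groups therefore holds whatever else set these clones apart. How the gene was disrupted is not given in the sources used here.

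The X-linked gene STAG2 encodes a part of cohesin, a ring-shaped complex that holds sister chromatids together until anaphase and folds interphase chromosomes into loops. A cohesin ring carries either STAG2 or its paralog STAG1, which can keep cells alive when STAG2 is missing. HCT116 is an established epithelial line that is widely used for gene targeting because it is near-diploid. The comparison asked which transcripts differ when a line that began with a working STAG2 gene has lost it.

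The 4 arrays were on a common scale, with medians of 6.24 to 6.29 over all 33297 rows, and they correlated at 0.9907 or more over all rows. Most epithelial markers were high, which speaks to an epithelial line and not to the colon in particular. Of 28 epithelial junction and keratin genes with a row, 24 lay above the array median on all 4 arrays, as did 10458 of all 18417 genes. EPCAM, the epithelial adhesion molecule, ranged from 11.15 to 11.50. Markers of differentiated colon were mostly low. CDX2, the intestinal homeobox factor, ranged from 7.55 to 7.79, above the median, whereas the villus protein gene VIL1 (5.02 to 5.10), the intestinal cadherin gene CDH17 (3.40 to 3.51) and KRT20 (4.65 to 4.91) were below it. Of the colorectal list, 4 of 22 genes were above the median on all 4 arrays. The same held for 3 of 23 neural and glial genes, 4 of 22 blood and immune genes and 8 of 30 extracellular matrix and mesenchymal genes. The blood cell marker PTPRC was at 3.15 to 3.27. The summed levels of the neural list were 123.7 and 124.4 in wild-type and 123.5 and 126.5 in knockout clones. Those of the blood list were 114.2 and 114.6 against 114.5 and 116.5, and those of the mesenchymal list 173.5 and 174.7 against 171.7 and 173.9.

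STAG2 itself was examined first. Its level was 9.28 in clone 24 and 9.30 in clone 27, against 6.57 in knockout clone 7 and 7.14 in knockout clone 21. The knockout clones were thus both far below the wild-type clones, with 2.14 between the nearest arrays, and clone 21 kept the higher value. The difference was -2.44 (SE 0.23, adjusted p = 0.000115, limma). Among all rows of an array its mean percentile was 87.3 in wild-type and 58.8 in the knockouts. Which exons the array's probes share with the disrupted part was not known, so the remaining signal does not show how much transcript remained. The fall was of similar size in H4, where deficient minus corrected was -2.19, and the difference between the lines, -0.24 (SE 0.29), did not pass (adjusted p = 0.777).

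The rest of the complex showed no counterpart to this fall. STAG1, which fills the same place in cohesin, was at 8.66 and 8.53 in wild-type and at 8.61 and 8.82 in knockout clones, and these ranges overlapped. Its difference was 0.12 (SE 0.15, adjusted p = 0.898). The ring subunits SMC1A (-0.12), SMC3 (0.02) and RAD21 (0.15), the last being the kleisin that closes the ring, did not pass either. NIPBL, the loader of cohesin, had the smallest p of the other members, at 8.68 and 8.70 in wild-type against 8.93 and 9.10 in knockout clones (difference 0.33, adjusted p = 0.563). Of 20 tested cohesin subunits and regulators, only STAG2, the knocked-out gene itself, passed. No other member did, where 0.131% of all 12978 genes tested passed in either direction. STAG3, the meiotic member of the family, lay below the array median on all 4 arrays and was not tested.

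The largest rise in the knockouts was in ANGPT2, which encodes angiopoietin-2, a secreted ligand that antagonises the TIE2 receptor of blood vessels. Its level was 4.66 and 4.95 in the wild-type clones and 7.81 and 7.94 in the knockout clones. The groups were 2.86 apart and each was narrow. The difference was 3.06 (95% interval 2.72 to 3.40, adjusted p = 1.05e-07, limma), or 8.37-fold. In wild-type clones its mean percentile among the rows was 28.8; no detection call was available to separate such a signal from background, so the size of the fold is uncertain. Among the other angiopoietins, VEGF ligands and their receptors, none of the 11 further genes tested passed in limma, where 0.131% of all genes did. At an unadjusted p under 0.05 there were 0 of them, against 7.83% of all genes. With 11 genes no departure from these shares is read. VEGFA, the main vascular growth factor, ranged from 7.63 to 7.75. The angiopoietin receptor genes TEK (at most 4.38) and TIE1 (at most 5.34) lay below the array median throughout and were not tested.

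Among integrins, the heterodimeric receptors that attach cells to matrix, 1 gene rose and 1 fell. ITGB8, whose product pairs with the alpha V chain to bind latent TGF-beta, was at 5.36 and 5.09 in wild-type and at 7.79 and 7.69 in knockout clones. ITGB4, whose product pairs with alpha 6 as the laminin receptor of hemidesmosomes, was at 8.39 and 8.71 in wild-type and at 7.66 and 7.71 in knockout clones. ITGB8 rose by 2.52 (SE 0.35) and ITGB4 fell by 0.86 (SE 0.12), each with an adjusted p = 0.00642 by limma. In neither gene did the groups overlap. The partner chains did not pass, with 0.28 for ITGAV (adjusted p = 0.776) and -0.32 for ITGA6 (adjusted p = 0.874). The other 14 of the 16 integrin subunits tested did not pass, where 0.0771% of all genes rose and 0.0539% fell. The median difference was 0.095 against -0.014 over all genes tested.

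TM4SF18, a small 4-pass membrane protein of the L6 family, was the third gene with a large rise. Its values were 4.68 and 4.56 in wild-type and 6.86 and 6.60 in knockout clones, a difference of 2.11 (SE 0.17, adjusted p = 2.67e-05, limma). The wild-type values lay just above the arrays' lower quartile of 4.51 to 4.52, so this fold is uncertain as well. Its relatives did not follow it. TM4SF1, the next tested gene on the chromosome, was at 5.14 and 4.96 in wild-type and was lowest, at 4.51, in clone 7, with overlapping groups (difference -0.29, adjusted p = 0.848), and TM4SF5 differed by -0.25 (adjusted p = 0.652).

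RefSeq promoters are shown for 4 genes, to set beside their values. Leaving out ANGPT2 and STAG2, these had the largest changes among the genes that passed. Each line gives the 250 bases before the gene's start in GRCh38.p14, 5′ to 3′ along the gene's strand, with the GC box GGGCGG, or CCGCCC where it reads on the other strand, in capitals.
ITGB8 (chr7:20330650-20330899, plus strand): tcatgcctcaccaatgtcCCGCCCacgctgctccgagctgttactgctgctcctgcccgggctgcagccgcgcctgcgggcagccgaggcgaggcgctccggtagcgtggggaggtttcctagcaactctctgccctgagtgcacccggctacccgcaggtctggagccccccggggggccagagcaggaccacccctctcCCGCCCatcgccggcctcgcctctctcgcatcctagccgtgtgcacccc
TM4SF18 (chr3:149333637-149333886, minus strand): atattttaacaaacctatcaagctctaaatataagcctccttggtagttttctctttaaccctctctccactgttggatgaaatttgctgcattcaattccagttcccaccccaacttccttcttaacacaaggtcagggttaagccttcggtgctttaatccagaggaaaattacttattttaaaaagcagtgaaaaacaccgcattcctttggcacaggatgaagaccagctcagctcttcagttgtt
SCML1 (chrX:17737243-17737492, plus strand): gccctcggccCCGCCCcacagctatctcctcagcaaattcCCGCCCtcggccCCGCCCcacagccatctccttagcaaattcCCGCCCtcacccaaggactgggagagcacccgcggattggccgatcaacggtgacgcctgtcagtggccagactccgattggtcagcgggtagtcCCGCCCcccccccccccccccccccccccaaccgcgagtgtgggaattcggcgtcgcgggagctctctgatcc
ADGRF1 (chr6:47042333-47042582, minus strand): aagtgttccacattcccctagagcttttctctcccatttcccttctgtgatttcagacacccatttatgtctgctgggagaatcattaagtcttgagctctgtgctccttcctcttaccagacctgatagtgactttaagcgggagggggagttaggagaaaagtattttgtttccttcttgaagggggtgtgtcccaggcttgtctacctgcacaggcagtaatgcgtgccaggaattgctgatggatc
The windows differ in base composition. The GC content was 71.2% for ITGB8 and 69.2% for SCML1, but 40% for TM4SF18 and 47.6% for ADGRF1, against a median of 65.2% over the promoters of tested genes. ITGB8 holds 2 GC boxes and SCML1 holds 5, and in TM4SF18 and ADGRF1 these letters do not occur in the window.

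Of the 17 genes that passed, 12 had a promoter in the table, and the first start listed for each was used. GGGCGG was found in 6 of these 12 windows and in 66.9% of the 10310 windows of tested genes. CACCTG, an E-box, was in 3 of 12 against 16%, and CCCTC, the core of the CTCF motif, in 9 of 12 against 76.1%. The TATA box TATAAA (5.97% of all windows), the AP-1 motif TGANTCA (4.01%) and the cAMP response element TGACGTCA (2.79%) were in 0 of the 12. All motifs were searched on both strands. With 12 windows no departure from the general shares is read from these counts, and a match is a description only.

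A further 7 genes passed as higher in the knockouts, with the spread taken over all 16 arrays. None of the 7 passed with the HCT116 arrays alone (adjusted p = 0.123 to 0.579, limma). Without the 42MGBA arrays in the fit none of them passed either (adjusted p = 0.0515 to 0.271, limma). SCML1, a Polycomb-related gene on the X chromosome, was at 5.36 and 4.99 in wild-type and at 6.78 and 7.00 in knockout clones (difference 1.71, adjusted p = 0.0129, limma). GALNT3, a transferase that starts mucin-type O-glycans, was at 6.22 and 5.50 against 7.17 and 6.83, so that its wild-type clones lay further apart than its knockouts, and both were below the array medians. The small integral membrane protein gene SMIM14 was at 6.30 and 6.65 against 7.40 and 7.77. NR4A2, an orphan nuclear receptor and early response gene, was at 6.84 and 6.42 against 7.89 and 7.54. Each of these 4 genes was over 2-fold higher in the knockouts.

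The other 3 rises were smaller. NEBL, which encodes the actin-binding protein nebulette, was at 6.57 and 6.27 in wild-type and at 7.25 and 7.31 in knockout clones. FXYD3, a regulator of the sodium pump, was at 6.74 and 6.89 against 7.78 and 7.42. EXPH5, an effector of RAB27 in vesicle traffic, was at 6.91 and 6.62 against 7.65 and 7.46. The groups stood 0.53 or more apart in each of the 3 genes, and their rises were 1.72-fold to 1.81-fold.

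Falls were fewer and, apart from STAG2 and ADGRF1, under 2-fold. ADGRF1, an adhesion G-protein-coupled receptor, was at 9.21 and 9.38 in wild-type and at 7.21 and 8.04 in knockout clones, a difference of -1.67 (SE 0.23, adjusted p = 0.00642, limma). Clone 7 was the lower knockout for this gene, as it was for STAG2. CA2, the cytosolic carbonic anhydrase of surface colonocytes and other secretory cells, was at 8.57 and 8.75 in wild-type and at 8.10 and 7.44 in knockout clones. Its difference of -0.89 (adjusted p = 0.0450, limma) rested largely on clone 21: without that array it was -0.56 and did not pass (adjusted p = 0.121).

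The remaining falls were in genes of metabolism and signalling. CDA, the cytidine deaminase that salvages pyrimidines and inactivates cytidine drugs, was at 7.95 and 8.24 in wild-type and at 7.45 and 7.41 in knockout clones (-0.67, adjusted p = 0.0398). LIAS, the mitochondrial lipoic acid synthase, was at 7.65 and 7.66 against 6.98 and 6.98 (-0.68, adjusted p = 0.0450, limma). LIAS had almost no spread within a group, yet it did not pass with the HCT116 arrays alone (adjusted p = 0.471, limma). PABIR2, an X-linked regulator of the phosphatase PP2A, was at 9.59 and 9.77 against 9.01 and 9.20 (-0.58, adjusted p = 0.0493), the smallest change of all. With the HCT116 arrays alone, CDA and PABIR2 did not pass either (adjusted p = 0.558 and 0.579, limma). ITGB4 completes the 7 genes that fell.

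**Figure D1:**
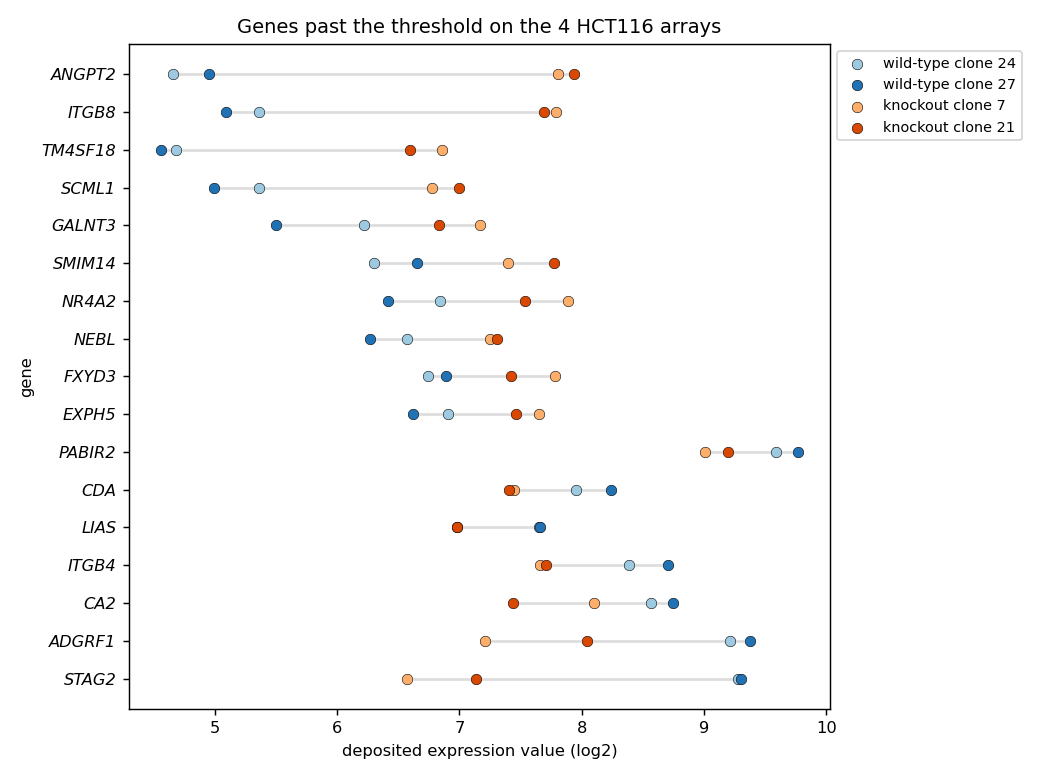
Deposited log2 value (horizontal axis) of the 17 genes that passed the threshold, 1 point per array, with wild-type clones in blue and knockout clones in orange. The groups do not overlap for any gene; ANGPT2 runs from 4.66 to 7.94 and STAG2 from 6.57 to 9.30.

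In all, 17 genes passed at an adjusted p under 0.05. Of them 10 were higher and 7 lower in the knockouts, which is 0.0771% and 0.0539% of the genes tested. A difference of at least 1.5-fold was found in 16 of the 17 and in 1.71% of all genes. The arrays of the groups did not overlap in any of the 17, as in 40.7% of all genes. At an unadjusted p under 0.05 there were 1016 genes (7.83%), where 649.0 are expected by chance. The X chromosome held 3 of the 17, STAG2, SCML1 and PABIR2, and 3.19% of all tested genes. Only ANGPT2, TM4SF18 and STAG2 passed in each of the 4 fits that left out a single HCT116 array, in which the lone clone of a group is assumed to vary like the other groups. Of the 17 genes, 3 passed without clone 27, 12 without clone 24, 11 without clone 7 and 12 without clone 21; the fits made 5, 21, 77 and 47 calls in all.

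With the spread taken from the 4 HCT116 arrays alone, ANGPT2 (adjusted p = 0.00844), ITGB8 (0.0105) and TM4SF18 (0.0207) passed and STAG2 did not (0.0616). Without the 42MGBA arrays in the fit, only ANGPT2, TM4SF18 and STAG2 passed. An exact permutation test of 2 arrays against 2 cannot give a p below 0.333, so none was used.

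The 2 knockout clones differed from each other at least 2-fold in slightly more genes than either did from a wild-type clone. At 1.5-fold this did not hold, with 662 genes between the knockouts and 402 to 665 between a knockout and a wild-type clone. Between clones 7 and 21, 128 genes differed by at least 2-fold, against 88 to 126 between a knockout and a wild-type clone and 28 between the 2 wild-type clones. The SD of the differences over all tested genes was 0.328 between the knockouts, 0.277 to 0.309 between a knockout and a wild-type clone, and 0.203 between the wild-type clones. When clone 7 was set against clone 24 and clone 21 against clone 27, which share no array, 90 and 126 genes differed by at least 2-fold. In 16 of these both pairs passed 2-fold in the same direction, and in 11 in opposite directions. Among the 16 were STAG2, ANGPT2, ITGB8, TM4SF18, ADGRF1, SCML1, SMIM14, NR4A2, SLCO3A1, KRCC1, BDNF, BAMBI, MSX2, EGR1 and LIF. Over all tested genes the correlation between these 2 sets of differences was 0.116, or 0.144 with the wild-type clones exchanged; genes are not independent replicates.

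**Figure D2:**
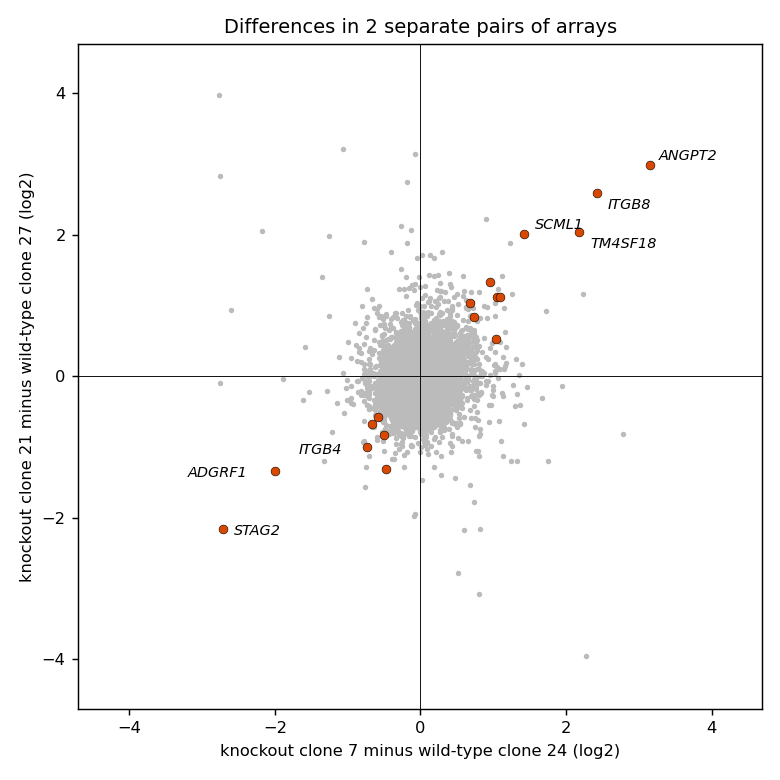
Log2 difference of knockout clone 7 from wild-type clone 24 (horizontal) and of knockout clone 21 from wild-type clone 27 (vertical), 1 point per tested gene, leaving out XIST and genes of the Y chromosome, with the genes that passed in orange. The genes that passed lie in the upper right and lower left quadrants, from STAG2 to ANGPT2, since both pairs differ the same way.

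Of the 128 genes, 58 had clone 7 within 0.5 of either wild-type clone and clone 21 farther from both, and 39 the reverse. The matrix proteoglycan gene VCAN was at 9.81 in clone 7 and 5.40 in clone 21, with 7.54 and 9.36 in the wild-type clones. SLC1A3, a glutamate transporter, was at 5.81 in clone 7 and 9.72 in clone 21, with 7.99 and 7.66 in wild-type. ZNF804A, a zinc-finger gene, was at 7.80 and 4.55 with 6.05 and 5.74 in wild-type. The receptor gene GPR15 was at 5.57 in clone 7 and 8.91 in clone 21, and it was about as far apart in the wild-type clones, at 8.34 in clone 24 and 4.93 in clone 27. These are the genes with the largest gaps, chosen for them, and with 1 array a clone they carry no test. The other 4 of the 8 largest gaps were in genes of the Y chromosome. None of the genes named in this paragraph passed between the groups.

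The wild-type clones were closer to each other. Their largest gaps after GPR15 were in PRKAA2, the catalytic alpha 2 chain of AMP-activated kinase, at 4.92 in clone 24 and 7.59 in clone 27, in VSNL1, a calcium sensor gene, at 8.85 and 6.35, and in LAMA4, a laminin chain, at 4.52 and 6.56. PRKAA2 was at 7.70 and 6.77 in the knockouts, so clone 24 alone was low, and it passed when clone 27 was left out.

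Genes of S-phase entry and DNA replication lay below the wild-type level together, by small amounts. All 29 tested members had a negative difference, where 46.6% of all genes had a positive one. The differences ran from -0.56 to -0.06, with a median of -0.283. In 25 of the 29 the knockout arrays lay below both wild-type arrays, which 22.1% of all genes did. The median was -0.300 in clone 7 and -0.279 in clone 21. None passed in limma, and 4 had an unadjusted p under 0.05, against 4.08% of all genes in this direction. These were the replication initiation genes MCM10, at 10.11 and 10.02 in wild-type and at 9.61 and 9.42 in knockout clones, and CDC45, at 9.18 and 9.12 against 8.64 and 8.71, with MCM2, a subunit of the replicative helicase (-0.42), and CCNE1, the cyclin of S-phase entry (-0.36). Their adjusted p-values by limma were 0.533, 0.566, 0.631 and 0.580.

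Repair genes of homologous recombination and the Fanconi pathway, which act on replicated chromatids, lay on the same side. Of 24 tested, 20 had a negative difference, with a median of -0.129, where 46.6% of all genes had a positive one. In 15 the knockout arrays lay below both wild-type arrays, as in 22.1% of all genes. RAD54L, a motor of strand exchange, was at 8.15 and 8.02 in wild-type and at 7.54 and 7.48 in knockout clones (-0.58, adjusted p = 0.552). The nuclease gene EXO1 (-0.47, adjusted p = 0.521) and the recombination genes XRCC2 (-0.45, adjusted p = 0.540) and XRCC3 (-0.41, adjusted p = 0.610) did not pass either.

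Mitotic genes lay on the other side. Of 24 genes of G2 and mitosis, 23 had a positive difference, where 46.6% of all genes did, with a median of 0.104. In 14 the knockout arrays lay above both wild-type arrays, against 18.5% of all genes. The median was 0.052 in clone 7 and 0.190 in clone 21. TOP2A, the topoisomerase that untangles sister chromatids, was at 9.75 and 9.66 in wild-type and at 9.99 and 10.20 in knockout clones (0.38, adjusted p = 0.588). CKS2, a cofactor of CDK1, differed by 0.29 (adjusted p = 0.553). Kinetochore and spindle checkpoint genes were mixed, with 16 of 26 positive and a median of 0.071; CENPE, the kinetochore motor, differed by 0.45 (adjusted p = 0.521). None of the genes in these 4 lists passed in limma; at an unadjusted p under 0.05 there were 4 of the repair genes, all lower (4.08% of all genes), and 2 of the mitotic and 1 of the kinetochore genes, all higher (3.75%). The cultures were labelled as growing below confluence, and whether their growth state differed was not tested.

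TGF-beta pathway genes, of interest beside ITGB8, had 19 of 26 positive differences, against 46.6% of all genes, and a median of 0.195. In 14 the knockout arrays lay above both wild-type arrays, as in 18.5% of all genes. None passed in limma, and 5 had an unadjusted p under 0.05, all of them higher in the knockouts, as were 3.75% of all genes. SMAD7, the feedback inhibitor of the receptors, came nearest at 5.55 and 5.70 in wild-type and 6.20 and 6.37 in knockout clones (0.66, adjusted p = 0.0854). BMP4, a ligand of the family, was at 8.37 and 7.93 against 8.83 and 9.05 (0.79, adjusted p = 0.140). The pseudoreceptor BAMBI was at 7.30 and 6.83 against 8.56 and 8.00 (1.22, adjusted p = 0.211), and SKIL, a co-repressor of SMAD proteins, differed by 0.63 (adjusted p = 0.320). TGFB1, the ligand itself, differed by 0.23.

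Early response genes beside NR4A2 lay on both sides and none passed. EGR1, a zinc-finger factor induced by growth signals, was at 7.77 and 7.83 in wild-type and at 8.89 and 9.25 in knockout clones (1.27, adjusted p = 0.311). JUN was high in clone 7 alone, at 7.50 against 6.35 to 6.56 on the other arrays, and FOS was highest in clone 21, at 7.88 against 6.99 to 7.17. FOSL1 and FOSL2, which encode partners of JUN, were lower by small amounts, at -0.26 and -0.25. Of the 22 tested genes of the list, 14 had a positive and 8 a negative difference, the median was 0.031, and NR4A2 was the 1 that rose, where 0.0771% of all genes did. The list was chosen with earlier results of these data known, so this call is not read against that share. Among 21 MAPK feedback genes limma called 0, where 0.131% of all genes were called. Only DUSP6, the ERK phosphatase, was under an unadjusted p of 0.05, as were 7.83% of all genes. It was at 9.36 and 9.12 against 9.75 and 10.58 (0.93, adjusted p = 0.485, limma).

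Wnt target genes were not shifted together, with 9 of 21 positive against 46.6% of all genes. AXIN2, the feedback scaffold, differed by 0.29 (adjusted p = 0.548) and RNF43, the ubiquitin ligase that removes Wnt receptors, by -0.66, at 9.52 and 9.72 in wild-type and 9.29 and 8.61 in knockout clones (adjusted p = 0.311). None of the Wnt list passed in limma, and 4 of 21 had an unadjusted p under 0.05, against 7.83% of all genes.

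Among epithelial genes CDH1, which encodes E-cadherin, was at 8.07 and 8.43 in wild-type and at 8.75 and 9.12 in knockout clones (0.68, adjusted p = 0.160). GRHL2, a factor that maintains epithelial genes, was at 7.92 and 7.54 against 8.38 and 8.31 (0.62, adjusted p = 0.244). Neither passed, and the 25 junction and keratin genes gave 0 calls in limma, with 4 at an unadjusted p under 0.05, all positive, where 3.75% of all genes were so. Beside GALNT3, limma called 0 of the 18 other mucin and O-glycosylation genes tested, where 0.131% of all genes were called. Under an unadjusted p of 0.05 there was 1 of them, against 7.83% of all genes. The paralog GALNT7 differed by 0.39 (adjusted p = 0.636, limma). Beside SCML1, 31 other Polycomb-related genes were tested and limma called 0, with 6 under an unadjusted p of 0.05 where 7.83% of all genes were. Nearest was L3MBTL2, a subunit of a variant Polycomb complex, at 8.65 and 8.61 in wild-type and 8.15 and 8.03 in knockout clones (-0.54, adjusted p = 0.111).

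For the other lists the counts were as follows. Cholesterol synthesis genes had a median of 0.217, but this came from clone 7 (0.415) and not from clone 21 (-0.022), and none of 19 passed (1 at an unadjusted p under 0.05). Interferon-stimulated genes had a median of 0.019 in clone 7 and 0.248 in clone 21, and none of 32 passed (1 at an unadjusted p under 0.05). Limma called 0 of 29 hypoxia and glycolysis genes, of which 20 were negative, 0 of 27 genes of amino acid and unfolded protein stress, of which 16 were positive, and 0 of 17 tetraspanins, of which 8 were positive. At an unadjusted p under 0.05 there were 1, 2 and 3 of them, against 7.83% of all genes. It also called 0 of 30 extracellular matrix and mesenchymal genes (1 at an unadjusted p under 0.05), 0 of 12 neural genes and 0 of 6 blood and immune genes (0 for both). ADGRF1 was the 1 of 16 adhesion receptors to pass, FXYD3 the 1 of 7 FXYD and sodium pump genes, EXPH5 the 1 of 10 RAB27 genes and CA2 the 1 of 6 colorectal genes. No other tested member of these lists passed, where 0.131% of all genes did. The lists were chosen with earlier results of these data known, so the 1 call in each is not read against this share. In the mesenchymal list S100A4, a motility-associated calcium-binding protein, was at 6.43 in clone 7 and at 9.18 to 9.28 on the other 3 arrays.

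**Figure D3:**
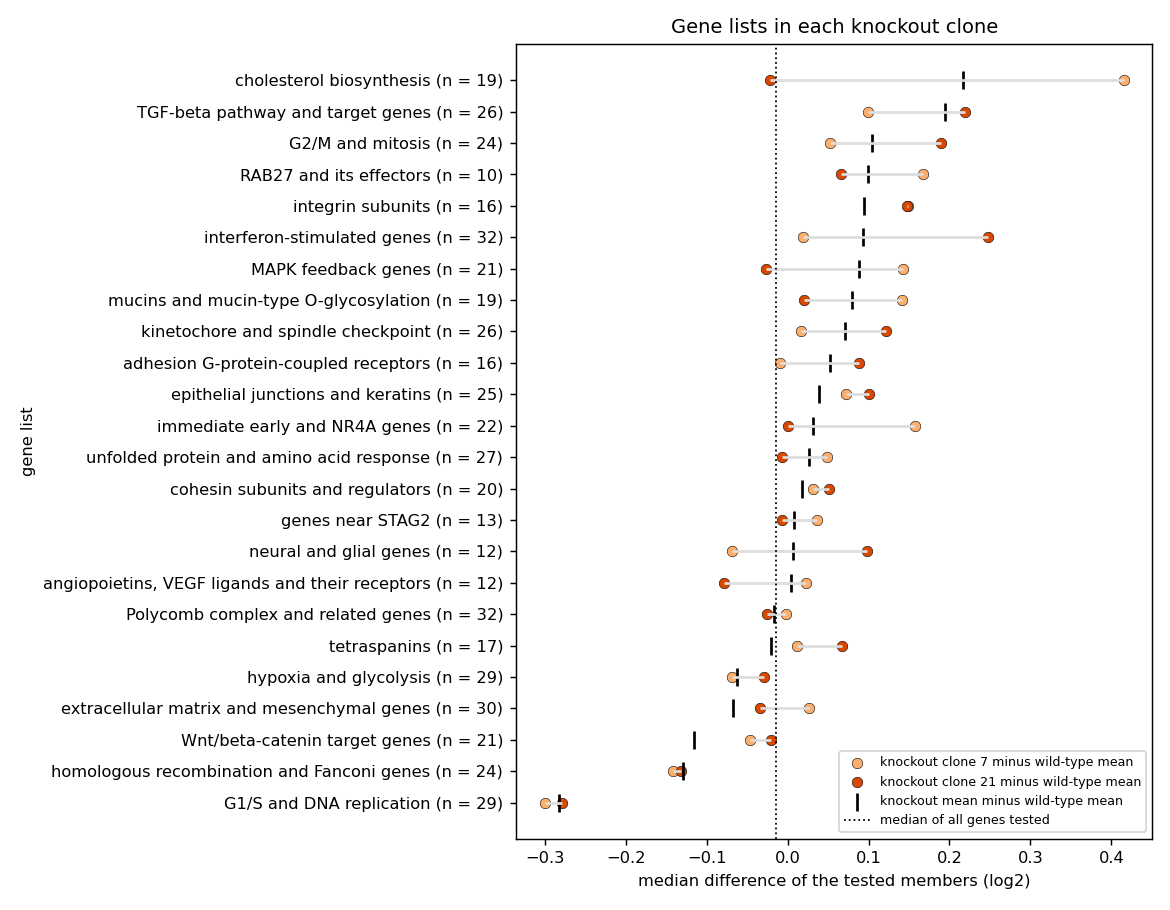
Median log2 difference (horizontal axis) of the tested members of each gene list shown, all with 10 or more of them, for knockout clone 7 and clone 21 against the wild-type mean and for the mean of both; the dotted line is the median of all genes tested, -0.014. Replication genes are lowest in both clones, at -0.300 and -0.279, while cholesterol genes stand apart in clone 7 only.

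Several genes with clear separation stayed short of the threshold and are given as values. On the higher side, SLCO3A1, an organic anion transporter, was at 6.30 and 6.31 in wild-type and 7.36 and 7.54 in knockout clones (adjusted p = 0.0709). BDNF, the neurotrophin, was at 6.41 and 6.61 against 7.64 and 8.50 (adjusted p = 0.109). KRCC1 was at 4.93 and 4.34 against 6.00 and 5.48 (adjusted p = 0.106). PLCXD2 (0.77), CDK14, a cyclin-dependent kinase (0.61), ARAP2, a regulator of small GTPases (0.73), and MEIS2, a homeobox factor (0.83), had adjusted p-values of 0.0854 to 0.126.

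On the lower side, SCG2, the secretory granule protein secretogranin II, was at 5.98 and 6.60 in wild-type and 5.22 and 5.03 in knockout clones (adjusted p = 0.0586), the nearest of all to the threshold. LIF, a cytokine of the interleukin-6 family, was at 7.73 and 8.20 against 6.41 and 7.01 (adjusted p = 0.184). GRK5, a kinase of G-protein-coupled receptors, was at 8.14 and 8.18 against 6.92 and 7.39 (adjusted p = 0.111). DPP4, a surface peptidase, differed by -0.78, GREB1L by -0.74, PRAG1 by -0.61, the histone gene H2AC15 by -0.67 and the imprinted gene PEG10 by -0.76. PEG10 was low mainly in clone 7, at 7.18 against 7.97 in clone 21 and 8.32 and 8.35 in wild-type.

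The chromosomal neighbours of the 17 genes were looked up in gene order, as the nearest tested gene on each side. Among these 34 neighbours limma called 0, with 3 under an unadjusted p of 0.05, where 7.83% of all genes were. In 25 of the 34 the difference had the sign of the gene beside it. Of all genes 46.6% had a positive difference, which is not a share of such agreement, and that share was not computed. Whether neighbours share a sign more often than other genes was not tested. The differences ran from -0.38 to 0.47 with a median of 0.02. AGPAT5, next to ANGPT2, differed by 0.36 (adjusted p = 0.557), HPS3, next to TM4SF18, by 0.38 (adjusted p = 0.625) and PLA2G7, next to ADGRF1, by 0.47 (adjusted p = 0.569), opposite to its neighbour. XIAP, beside STAG2, was at 7.64 and 7.81 in wild-type and at 7.60 and 7.72 in knockout clones. Of the 13 tested genes near STAG2, a list that holds STAG2 itself, no other gene passed, where 0.131% of all genes did.

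The same differences were then set beside those of the other lines, whose arrays are not shared with HCT116. In H4, 3 arrays of STAG2-mutant cells (parental, and non-recombinant clones 10 and 12) were compared with 3 of corrected knock-in clones after Cre. In 42MGBA, 3 arrays of mutant parental cells and knock-in clones before Cre were compared with 3 of clones after Cre. Apart from STAG2 none of the 17 genes passed in H4, where 3.31% of all genes did, and 9 of the 17 had the same sign there. ANGPT2 differed by -0.08 in H4, ITGB8 by 0.22, TM4SF18 by -0.37 and ADGRF1 by 0.00. On every H4 array ANGPT2 (at most 5.03), TM4SF18 (at most 4.91) and ADGRF1 (at most 4.39) lay below the array medians of 6.23 to 6.30. A small difference at such levels does not show whether these genes respond in H4. The effect in HCT116 minus that in H4 was itself past the threshold for 38 genes (0.293% of those tested) and for 7 of the 17: ANGPT2 (3.14, adjusted p = 2.68e-06), TM4SF18 (2.48), NEBL (0.96), ITGB8 (2.29), ADGRF1 (-1.67), ITGB4 (-0.90) and EXPH5 (0.97). NEBL, ITGB4 and EXPH5 were below the H4 medians on every H4 array too, and ITGB8 was above them. For the other 10 of the 17 the difference from H4 did not pass. NR4A2, with 0.50 in H4 (adjusted p = 0.0581, limma) and 1.09 in HCT116, was among them. On every H4 array NR4A2 (at most 5.52), GALNT3 (at most 4.03), CA2 (at most 5.49), CDA (at most 5.98) and FXYD3 (at most 6.22) were below the medians too. The limit of low levels thus holds for these 5 genes in H4 as well.

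Of the 38 genes, 28 had passed in H4 and not in HCT116. FRMD4B, a FERM-domain scaffold gene, was at 5.74 and 5.60 in wild-type and 6.12 and 6.66 in knockout HCT116 clones (0.72, adjusted p = 0.417), where H4 had -2.66. ST8SIA4, a polysialic acid synthase, differed by 0.37 in HCT116 against 3.05 in H4, and CYB5A by -0.03 against 2.30. Against 42MGBA the effect differed for 3 genes (0.0231%), ANGPT2 (3.07), TM4SF18 (2.28) and STAG2 (-2.14). ANGPT2 (at most 3.53) and TM4SF18 (at most 2.94) were below the array median on every 42MGBA array. The 42MGBA values lie on a scale with a lower median and a narrower spread, and STAG2 differed by -0.30 (SE 0.19) between its labelled groups and did not pass (adjusted p = 1.0 by limma), so this comparison carries both limits.

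**Figure D4:**
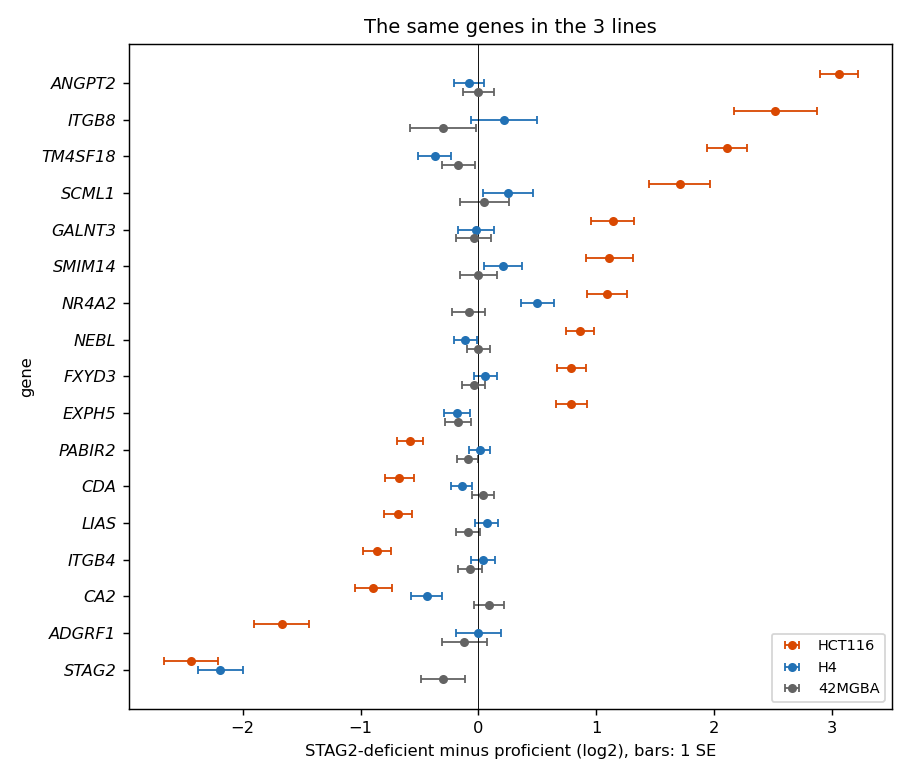
STAG2-deficient minus proficient difference on the log2 scale (horizontal axis) of the 17 genes in HCT116, H4 and 42MGBA, with bars of 1 SE from the fit of all 16 arrays. STAG2 is low in HCT116 and H4 (-2.44 and -2.19). ANGPT2 is high in HCT116 (3.06) and near 0 in H4 and 42MGBA, where it lay below the median on every array.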

How the data were processed

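The authors deposited log2 expression values for 33297 rows on 16 arrays. Per the submitters' processing notes they were made by RMA in Affymetrix's Expression Console, whose version is not given in the sources used here. The log2 unit follows from the range of the values. RMA sets arrays to a common distribution, which can hide a shift of all genes. The platform annotation gave a single symbol for 19460 rows, of which 19429 were updated to RefSeq names (GRCh38.p14); rows with several genes (1754) or not listed (12083) stayed out. Where a gene had several rows (769 of 18417 genes), the one brightest on average over the 16 arrays stood for it. A gene was tested when it lay above the array median on at least 2 arrays (12978 genes). Of the genes that passed, ANGPT2, TM4SF18 and GALNT3 lay above it on the 2 knockout arrays only. They thus entered the test through the group in which they are high. They also passed with no filter.

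Samples were grouped by title. limma 3.58.1 (R 4.3.3) was fitted to 16 arrays in 6 groups with a shared spread per gene (lmFit and eBayes), two-sided, adjusted by Benjamini-Hochberg over all genes tested, at 0.05. Nothing shows separate cultures beyond the clones. The fit had 10 residual degrees of freedom, against 2 with the HCT116 arrays alone. Most of the residual spread thus came from groups of the other lines. Those groups include parental cells and sublines whose titles share a clone number. The p-values therefore do not measure the spread of independent HCT116 clones alone, and the spread may be partly technical. For a gene that varies more in HCT116 than elsewhere the p-values are too small. On simulated data of the HCT116 comparison over 12978 genes, 54% of genes changed 1.5-fold, 86% of those changed 2-fold and 100% of those changed 8-fold were called. Each share is of 50 changed genes, and 8 unchanged genes were called as well. The simulation gave every group the same spread per gene. These shares therefore hold only if HCT116 clones vary like the other groups. The number of arrays limits the precision. Detection calls were not used.

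Named genes were STAG2 and STAG1, every gene past the threshold, the 8 next in each direction by p with separate groups and at least 1.5-fold, up to 4 members of a list by p (those with an unadjusted p under 0.05), the 5 with the smallest p against each other line, and the largest gaps between clones (8 in knockouts, 4 in wild-type). Genes named as levels of markers, ligands, partner chains or neighbours, FOSL1 and FOSL2, and those 2-fold in both pairs, were added after their values were seen. Genes and the 29 lists were chosen with earlier results of these data known. Alternatives were other samples in the fit, each array left out, other filters, centring, quantile normalization, the mean of a gene's rows and an intensity trend with a robust prior. Some genes and 1 list are not reported here.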

Additional observations from a re-analysis of the deposited data

Results flagged for a closer look

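These effects in HCT116 differed from those in another line by a test of the difference itself (limma, adjusted p under 0.05). Of the 38 genes that differed against H4, the 13 that the text names are given here. The values are differences between the effects of the 2 lines, not between their levels. The effect was more positive in HCT116 than in H4 for FRMD4B (3.38), ANGPT2 (3.14), TM4SF18 (2.48), ITGB8 (2.29), SLCO3A1 (1.56), EXPH5 (0.97) and NEBL (0.96). It was more negative in HCT116 than in H4 for ST8SIA4 (-2.68), CYB5A (-2.32), RNF43 (-1.78), ADGRF1 (-1.67), HK2 (-1.63) and ITGB4 (-0.90). HK2, the hexokinase of the first glycolytic step, was at 9.76 and 9.50 in wild-type and 9.37 and 8.89 in knockout clones, a difference of -0.50 against 1.14 in H4. RNF43 differed by -0.66 in HCT116 and 1.12 in H4. Against 42MGBA the genes whose effect differed were ANGPT2 (3.07), TM4SF18 (2.28) and STAG2 (-2.14). No group held the 4 arrays needed to search for single outlying arrays.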

How the results depend on the processing

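The count of 17 genes was 3 with the HCT116 arrays alone, 3 without the 42MGBA arrays and 11 with an intensity trend and robust prior; those 3, 3 and 11 were all among the 17. Leaving out a single array gave 5 to 77, the lowest without clone 27 and the highest without clone 7. With no filter it was 17 (16 shared), with the filter on HCT116 arrays 18, centred on medians 15, with quantile normalization 16 and with the mean of rows 17. ANGPT2 and TM4SF18 passed in all 12 alternatives. The count of 38 against H4 was 10 without the 42MGBA arrays and 10 to 140 without a single array, the lowest without clone 27 and the highest without clone 7. The count of 3 against 42MGBA was 3 to 30 without a single array, the highest without clone 21. No named gene that passed changed sign. CYB5A, near 0 (-0.03), was -0.07 to 0.02 without a single array, and 0.01 with quantile normalization. The cause of these changes was not tested, other than that fewer arrays leave fewer degrees of freedom. Centring moved the median difference of all genes from -0.014 to -0.015. Values below the array median may lie near background, which limits ANGPT2, TM4SF18, ITGB8, SCML1 and GALNT3 in wild-type. The same limit holds for ANGPT2, TM4SF18, NEBL, ADGRF1, EXPH5, NR4A2, GALNT3, CA2 and CDA in H4 and 42MGBA. It also holds for ITGB4 and FXYD3 in H4, and for SCML1 and LIAS in 42MGBA.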

Other observations

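Rows that could not be tied to a single gene were fitted in the same way over all 33297 rows. Of 1754 rows with several genes 0 passed by limma (lowest adjusted p = 0.168, 114 at an unadjusted p under 0.05), and of 12083 rows not listed in the annotation used here 0 passed (lowest adjusted p = 0.129, 653 at an unadjusted p under 0.05). Over all rows 9 passed, 6 higher and 3 lower in the knockouts.

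Lists near the chromosomal and cohesin themes held some further values. MCTS1, a translation factor gene near STAG2, was at 8.28 and 8.17 in wild-type and 8.01 and 7.67 in knockout clones (-0.39, adjusted p = 0.485), and LAMP2, a lysosomal membrane protein gene of the same arm, was at 8.85 and 8.99 against 9.19 and 9.45 (0.40, adjusted p = 0.631). SREBF2, the regulator of cholesterol synthesis genes, was at 8.34 and 8.40 in wild-type and at 8.99 and 8.90 in knockout clones (0.58, adjusted p = 0.218), although the median of the list was raised in clone 7 only. TSPAN7, an X-linked tetraspanin, was at 6.44 and 6.19 against 6.86 and 7.46 (0.84, adjusted p = 0.485).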
